A study of Rattus norvegicus with 30 samples.

Results

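Immediate early genes are the first genes that a cell transcribes after a stimulus, from factors that are already present, and their transcripts are made and degraded quickly. Fos, Fosb, Jun and Junb encode subunits of the AP-1 transcription factor, Egr1, Atf3, Myc and Klf6 encode other transcription factors, and Ier2 and Ier3 encode small proteins named as immediate early response genes. In liver they are known to respond to partial hepatectomy, to injury and to the stress of removing and handling the tissue itself. These 10 genes were taken here as a set, and every probe set annotated to 1 of the 10 symbols alone was used. This gave 15 probe sets (2 for Fos, 3 for Jun, 3 for Klf6 and 1 for each other gene) of 31042 probe sets on the array, or 10 of 14217 genes, and 0 probe sets carried a member symbol together with another one. Where a gene had several probe sets, the one with the highest mean stands for it, and the 1374404_at and 1389528_s_at probe sets of Jun share an annotated transcript.

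Female Sprague-Dawley rats, aged 10 weeks, fell into 3 groups of 10, and RNA of the left lobe of each liver was hybridised to its own Affymetrix rat genome array. Rats handled for 1 day, whose label time is 24 h, were weighed, restrained and given water by gavage, with tail vein blood drawn 1, 2, 4 and 8 h after the dose and euthanasia on day 2. Rats handled for 4 days, labelled 96 h, were weighed, restrained and gavaged each day, with blood drawn on day 4 at the same hours and euthanasia on day 5. Control rats, labelled 24 h, were left unhandled until euthanasia on day 2. All rats were bled out under isoflurane anaesthesia before the liver was taken. The day 5 rats had no unhandled counterpart, so 4 days of handling and the later day cannot be told apart in the comparison with control. The files hold no day, order or hour of collection for single rats. The values are intensities on a linear scale with a mean near 1 on every array, and array medians were 0.118 to 0.124 after 1 day of handling, 0.118 to 0.125 after 4 days and 0.118 to 0.124 in control rats. Intensities of different probe sets are not comparable as amounts of RNA.

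Control rats 1, 2 and 3 stood apart from the other 27 rats on the first principal component of all probe sets, which held 10.5% of the variance, at 52.3 to 84.3 against -25.2 to 1.76. Values without these 3 rats are given beside the results that moved most when they were left out. RNA integrity was followed by the Gapdh control probe sets, as log2 of the 3′ signal over the 5′ signal. This Gapdh ratio was 0.66 to 0.83 after 1 day of handling, 0.70 to 0.96 after 4 days and 0.55 to 0.70 in control rats, with 7 and 10 of 10 handled rats above all control rats. The summed level of 7 measured hepatocyte markers was 320 to 350 after 1 day, 316 to 362 after 4 days and 316 to 350 in control rats, and these markers were high in every array. Signed differences are handled minus control as the labels name the groups, and the genes that the study names as raised or lowered by handling were checked as far as they could be matched. All 25 genes checked ran in the opposite direction in these values, and the cause was not tested.

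Promoter sequences of 5 of the 10 genes (Fosb, Junb, Egr1, Ier2 and Klf6) were held in the RefSeq table of the GRCr8 assembly. Those of Egr1, Ier2 and Junb are shown as the stretches that held the cyclic AMP response element or its shorter form, since the best known response elements of immediate early genes lie near the start. These are the CArG box bound by serum response factor and the cyclic AMP response element bound by CREB. Each sequence runs 5′ to 3′ on the strand of the gene, from 250 bases before to 50 bases after the annotated start, and capitals mark CArG boxes and the letters TGACG or TGACGTCA on either strand.
Egr1, chr18:26736828-26737127 (+): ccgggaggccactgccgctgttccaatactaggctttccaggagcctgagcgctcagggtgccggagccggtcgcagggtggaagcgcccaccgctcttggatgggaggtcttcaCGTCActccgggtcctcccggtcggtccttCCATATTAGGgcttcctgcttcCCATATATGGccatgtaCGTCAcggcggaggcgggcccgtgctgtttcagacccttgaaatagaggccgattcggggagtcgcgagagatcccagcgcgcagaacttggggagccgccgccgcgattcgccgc
Ier2, chr19:40399123-40399422 (+): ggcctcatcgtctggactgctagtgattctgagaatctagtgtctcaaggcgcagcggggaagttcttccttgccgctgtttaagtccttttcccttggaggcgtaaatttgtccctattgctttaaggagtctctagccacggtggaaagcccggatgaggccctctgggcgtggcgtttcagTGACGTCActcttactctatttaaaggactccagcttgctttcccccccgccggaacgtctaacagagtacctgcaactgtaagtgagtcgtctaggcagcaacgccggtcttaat
Junb, chr19:40080876-40081175 (+): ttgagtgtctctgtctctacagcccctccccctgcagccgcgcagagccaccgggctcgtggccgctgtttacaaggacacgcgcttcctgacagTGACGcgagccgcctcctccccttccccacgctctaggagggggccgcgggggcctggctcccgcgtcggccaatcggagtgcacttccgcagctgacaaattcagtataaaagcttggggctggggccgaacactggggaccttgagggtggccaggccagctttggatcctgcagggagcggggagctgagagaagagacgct

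The Egr1 stretch held 2 CArG boxes, at positions -105 and -83 from the start, between 2 copies of TGACG at -135 and -66. In the Ier2 stretch there was 1 full element TGACGTCA at -66, which contains TGACG on both strands. The Junb stretch held 1 copy of TGACG at -155. Of the sequences that are not shown, that of Klf6 held 1 CArG box at -201 and 1 GC box (GGGCGG) at -76, and that of Fosb held none of the letters searched. Among all 33469 rat promoters of the same length, 1.64% held a CArG box, 1.83% held TGACGTCA, 21.2% held TGACG, 7.33% held the AP-1 element TGANTCA and 33.1% held GGGCGG, searched on both strands. These are matches of letters, and binding was not measured.

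For none of the 10 genes did limma call a difference between handled and control rats after adjustment over all probe sets. In rats handled for 1 day, 0 of 15 member probe sets differed from control at an adjusted p under 0.1 in limma with Benjamini-Hochberg adjustment over all probe sets, where 0.0902% of all probe sets did. In rats handled for 4 days it was again 0 of 15, where 0.657% of all probe sets did. Between 4 days and 1 day of handling 0 of 15 were called, as were 0% of all probe sets, and limma's F test over the 3 groups called 0 of 15 against 0.306% of all. At an unadjusted p under 0.05, limma gave 1 member probe set after 1 day (9.33% of all probe sets), 3 after 4 days (11.3%), 0 between 4 days and 1 day (5%) and 0 in the F test (10%). The t-test named in the study's methods was also run, here on log2 intensities, and so was an exact rank-sum test. Each gave 0 member probe sets at that level after 1 day, 4 after 4 days and 0 between them, and 0 after Benjamini-Hochberg adjustment. Of all probe sets, 9.11%, 10.7% and 5.91% were at that level in these comparisons by the t-test, and 7.87%, 9.47% and 5.29% by the rank-sum test. The smallest adjusted p of a member was 0.533 after 1 day, 0.352 after 4 days and 0.995 between them. The ranges of the groups overlapped in each of the 45 comparisons of a member probe set. The share over all probe sets was not counted, so whether this overlap is particular to the members was not tested.

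**Figure D1:**
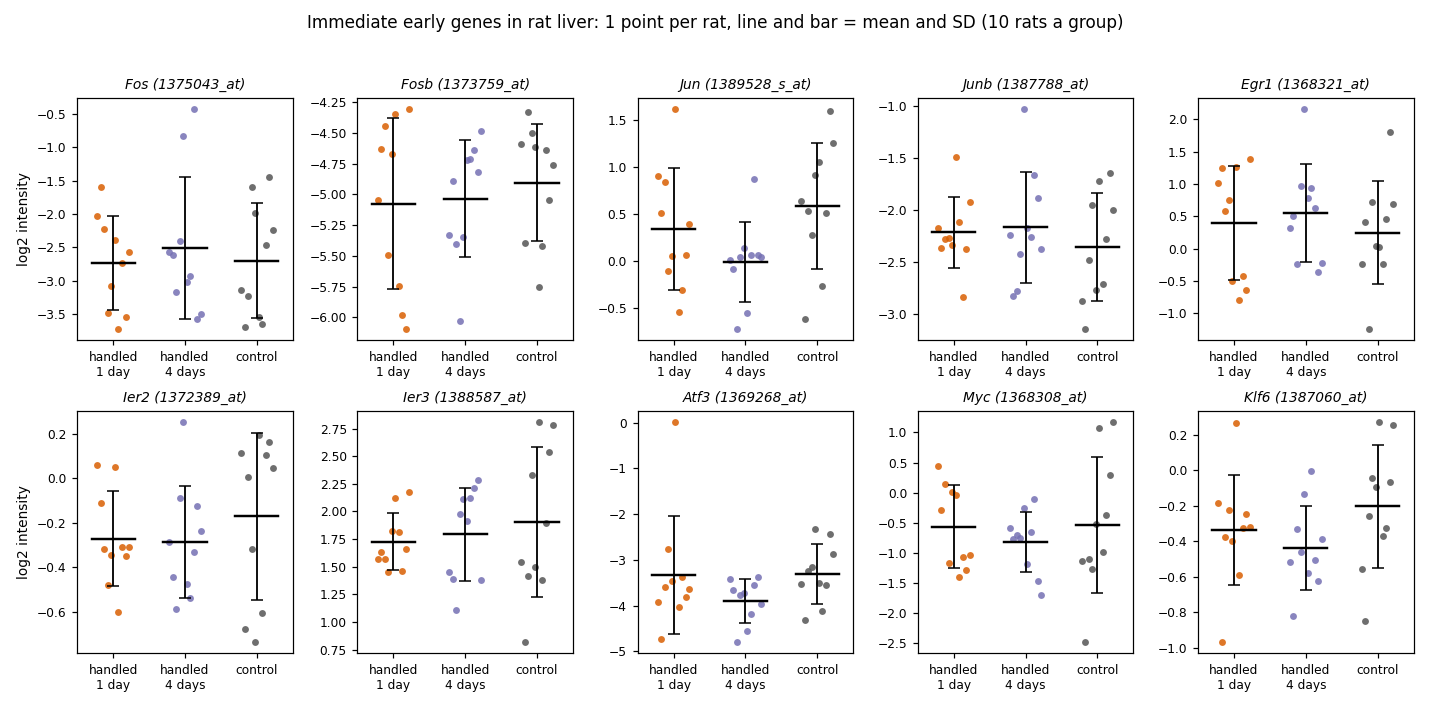
Log2 intensity (vertical axis) of each of the 10 genes, shown by its highest-mean probe set, in rats handled for 1 day, rats handled for 4 days and control rats. Each point is 1 rat, and the line and bar give the mean and SD of 10 rats; the groups overlap in all 10 panels, and 1 rat handled for 1 day lies far above the rest for Atf3.

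Among the AP-1 subunits, and among all 15 probe sets, the difference farthest from 0 was that of Jun after 4 days of handling. The 1389528_s_at probe set of Jun had intensities of 0.686 to 3.06 after 1 day of handling (median 1.18), 0.605 to 1.83 after 4 days (median 1.03) and 0.653 to 3.01 in control rats (median 1.496). Among the rats handled for 4 days, 1 of 10 lay above the control median, but the groups overlapped over most of their range. The difference after 4 days was -0.60 on the log2 scale (95% confidence interval -1.12 to -0.08), which is 0.659-fold, with p = 0.0256 and an adjusted p of 0.352 in limma. After 1 day it was -0.25 (-0.77 to 0.28, adjusted p = 0.807 in limma). The differences without control rats 1, 2 and 3 were -0.42 after 1 day and -0.77 after 4 days, with adjusted p-values of 0.714 and 0.232 in limma. The other Jun probe sets lay at -0.42 and -0.51 after 4 days, and across 30 rats they correlated with the first one at r = 0.92 and 0.97.

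Fos, the usual partner of Jun, had intensities of 0.0761 to 0.331 after 1 day of handling (median 0.160), 0.0841 to 0.743 after 4 days (median 0.147) and 0.0772 to 0.366 in control rats (median 0.147). The medians of the groups lay close together, while the lowest and highest rats of each group lay far apart. Its log2 differences were -0.038 after 1 day (-0.82 to 0.74) and 0.19 after 4 days (-0.58 to 0.97), and they were -0.32 and -0.086 without control rats 1, 2 and 3. The second, dimmer Fos probe set (1371283_at) correlated with the first at only r = 0.24, and only 19.1% of all probe sets were dimmer than it. For Fosb, also at the dim end of the array, intensities were 0.0147 to 0.0506 after 1 day (median 0.0348), 0.0154 to 0.0447 after 4 days (median 0.0346) and 0.0186 to 0.0496 in control rats (median 0.0385). Its differences of -0.17 and -0.13 had intervals from -0.66 to 0.36 at the widest. Junb had 0.139 to 0.355 after 1 day (median 0.206), 0.140 to 0.490 after 4 days (median 0.210) and 0.113 to 0.320 in control rats (median 0.192). Its log2 differences were 0.14 and 0.19, and they were -0.063 and -0.011 without control rats 1, 2 and 3.

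Among the other transcription factors, Egr1, a zinc finger protein, had intensities of 0.579 to 2.62 after 1 day of handling (median 1.59), 0.781 to 4.47 after 4 days (median 1.49) and 0.424 to 3.47 in control rats (median 1.18). The highest value was that of rat 5 handled for 4 days, and the next in its group was 1.97. The log2 differences of Egr1 were 0.15 (-0.57 to 0.86) and 0.31 (-0.41 to 1.02). Atf3, a stress-induced member of the ATF/CREB family, had 0.0376 to 1.01 after 1 day (median 0.0818), 0.0359 to 0.0968 after 4 days (median 0.0744) and 0.0499 to 0.199 in control rats (median 0.0963). Its highest value, in rat 6 handled for 1 day, was alone, since the next rat of that group was at 0.148. The difference after 4 days was -0.59 (-1.36 to 0.18, adjusted p = 0.579 in limma), and 1 of 10 of these rats lay above the control median.

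Myc, a regulator of cell growth, ranged over 0.377 to 1.36 after 1 day of handling (median 0.652), 0.307 to 0.932 after 4 days (median 0.602) and 0.178 to 2.26 in control rats (median 0.597). Control rats held both the lowest and the highest value of all 30. Its differences were -0.035 (-0.75 to 0.68) and -0.29 (-1.01 to 0.43), and without control rats 1, 2 and 3 they were -0.48 and -0.73, with adjusted p-values of 0.747 and 0.404 in limma.

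Klf6, a Krüppel-like zinc finger protein, had 0.511 to 1.204 after 1 day (median 0.800), 0.567 to 0.997 after 4 days (median 0.716) and 0.554 to 1.21 in control rats (median 0.888). Its log2 differences were -0.13 (-0.41 to 0.14) and -0.23 (-0.51 to 0.04), with adjusted p-values of 0.798 and 0.528 in limma. On its second probe set (1388986_at), the median was 0.608 after 1 day, 0.622 after 4 days and 0.785 in control rats, and 0 of 10 rats handled for 4 days lay above the control median. The difference on that probe set was -0.21 after 1 day (adjusted p = 0.533) and -0.24 after 4 days (-0.44 to -0.03, adjusted p = 0.359) in limma. Without control rats 1, 2 and 3 it was -0.30 and -0.33, with adjusted p-values of 0.2998 and 0.148 in limma. The third, dimmer probe set of Klf6 (1395557_at) lay at -0.096 and -0.053. On it, 6 of 10 rats handled for 4 days lay above the control median.

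For Ier2, a nuclear protein, intensities were 0.659 to 1.04 after 1 day of handling (median 0.805), 0.667 to 1.19 after 4 days (median 0.807) and 0.601 to 1.14 in control rats (median 1.02). All 30 rats lay within a 1.98-fold range, and the log2 differences of -0.10 and -0.11 had intervals from -0.38 to 0.16. Ier3, which acts in cell survival, had 2.74 to 4.52 after 1 day (median 3.13), 2.15 to 4.87 after 4 days (median 3.86) and 1.76 to 7.01 in control rats (median 3.31). Its differences were -0.17 and -0.11, and the control rats spanned the widest range. These became, without control rats 1, 2 and 3, -0.45 (-0.86 to -0.03) and -0.38 (-0.80 to 0.03), with adjusted p-values of 0.534 and 0.492 in limma.

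Over the 10 genes, the median log2 difference was -0.069 after 1 day of handling and -0.12 after 4 days, against -0.0035 and 0.0022 over all probe sets. Of all probe sets, 49.2% and 50.5% had a positive difference. After 1 day 8 of 10 genes were on the lower side and after 4 days 7 of 10, both comparisons sharing the same control rats. These sides follow the labels as they stand, and with the sign turned the same counts would lie on the higher side. Without control rats 1, 2 and 3 the medians were -0.24 and -0.25, against -0.0083 and -0.0035 over all probe sets. On the lower side were then 10 of 10 and 9 of 10 genes, which vary together across rats and are not independent. In that fit 3 and 5 of 15 probe sets had an unadjusted p under 0.05 in limma, against 8.5% and 11.4% of all probe sets. Several were of the same gene, as they came from Ier3 and Klf6 after 1 day and from Jun, Klf6 and Myc after 4 days. After adjustment 0 were called, against 0.329% and 0.828% of all probe sets. Between 4 days and 1 day of handling the median was 0.011, with 5 genes on each side, and the differences farthest from 0 were those of Atf3 (-0.57, -1.33 to 0.20) and Jun (-0.36, -0.88 to 0.17). The confidence interval stayed within a log2 difference of 1 in either direction in 10 of 10 genes after 1 day and in 6 of 10 after 4 days. For Jun, Egr1, Atf3 and Myc after 4 days it reached beyond that size. With the Gapdh ratio as a covariate, 0 of 15 member probe sets were called in each comparison, as were 0% of all probe sets after 1 day, 0.0161% after 4 days and 0.00322% between them.

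**Figure D2:**
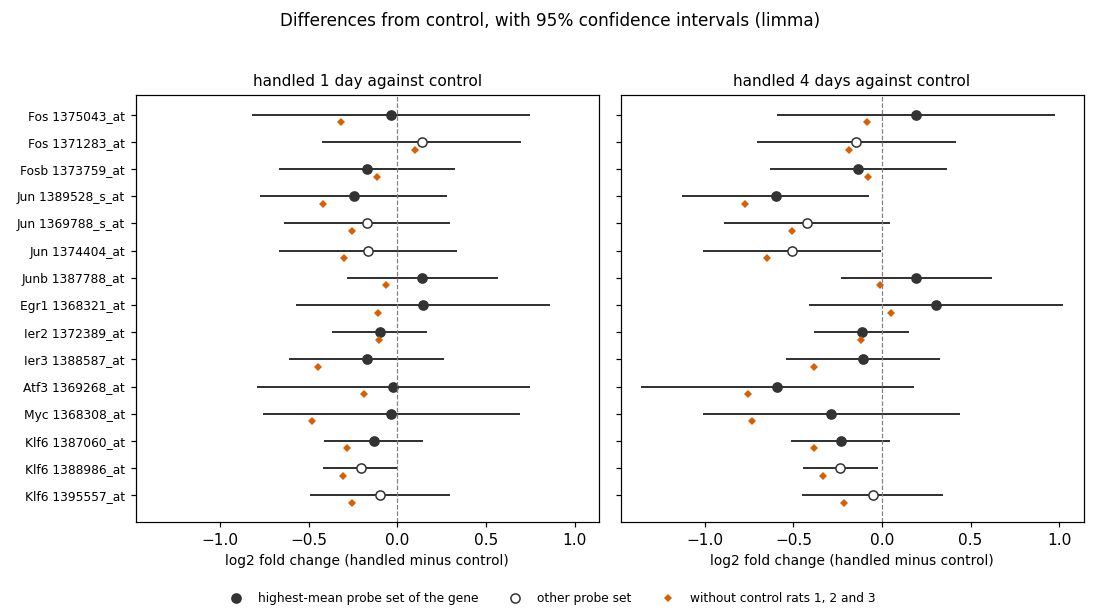
Log2 fold change (horizontal axis, handled minus control) with 95% confidence intervals for all 15 member probe sets after 1 day (left) and 4 days (right) of handling. Circles use all 30 rats and diamonds leave out control rats 1, 2 and 3, which moves most values lower; the Jun probe set at -0.60 after 4 days is the farthest from 0.

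The spread between rats was wide for part of the set. The SD of log2 intensity within groups was 0.89 for Fos, 0.87 for Atf3, 0.82 for Myc and 0.81 for Egr1, higher than in 98.6% to 99.1% of all probe sets. Among probe sets above the median brightness, 98.9% varied less than Fos, 98.6% less than Myc and 98.6% less than Egr1. Jun (0.59), Fosb (0.56), Ier3 (0.48) and Junb (0.47) followed, and Ier2 (0.29) and Klf6 (0.30) varied least. Over all 30 rats, the highest intensity was 28.1 times the lowest for Atf3, 12.7 times for Myc, 10.5 times for Egr1 and 9.77 times for Fos, against 1.98 times for Ier2 and 2.36 times for Klf6. The SD and range of Atf3 rested on rat 6 handled for 1 day, without which they were 0.56 and 5.54 times. The SD of Atf3 was 1.28 after 1 day of handling, 0.48 after 4 days and 0.65 in control rats.

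No difference in spread between handled and control rats passed the test. In limma on the absolute deviation of each rat from its group median, 0 of 15 member probe sets differed in spread after 1 day of handling (0.00322% of all probe sets were called), 0 after 4 days (0%) and 0 between 4 days and 1 day (0.00966%). At an unadjusted p under 0.05 there was 1 after 1 day (6.18% of all probe sets), 1 after 4 days (6.56%) and 0 between them (3.07%). These were Ier3 after 1 day, whose SD was 0.25 in handled rats and 0.68 in control rats (p = 0.0047, adjusted p = 0.757 in limma), and Myc after 4 days, with an SD of 0.51 in handled rats and 1.13 in control rats (p = 0.0202, adjusted p = 0.725 in limma). With deviations taken from the group mean in place of the median, Ier3 passed after 1 day (adjusted p = 0.0442 in limma), with 2.5% of all probe sets called, and 0 member probe sets passed after 4 days (2.84% of all). Ier3 did not pass without control rats 1, 2 and 3 (adjusted p = 0.374 in limma).

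The members varied together from rat to rat. Log2 intensities were centred on the group means, so that differences between groups do not enter, and the 10 genes gave 45 pairs. All 45 pairs had a positive Pearson's r over 30 rats, from 0.007 (Fosb and Klf6) to 0.81 (Junb and Ier3), with a median of 0.44. Between members and all other probe sets, dim ones included, the median r was 0.01, while each member stood by its highest-mean probe set. In 26 of 45 pairs r passed a within-group permutation test at an adjusted p under 0.05 (100000 permutations, two-sided, Benjamini-Hochberg over the 45 pairs), and in 18 pairs Spearman's rho did. The smallest r that passed was 0.35, and 6.89% of pairs of a member with another probe set had an r at least as high. Without control rats 1, 2 and 3 the median was 0.40, 44 of 45 pairs were positive and 14 passed, 13 of them among the 26.

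**Figure D3:**
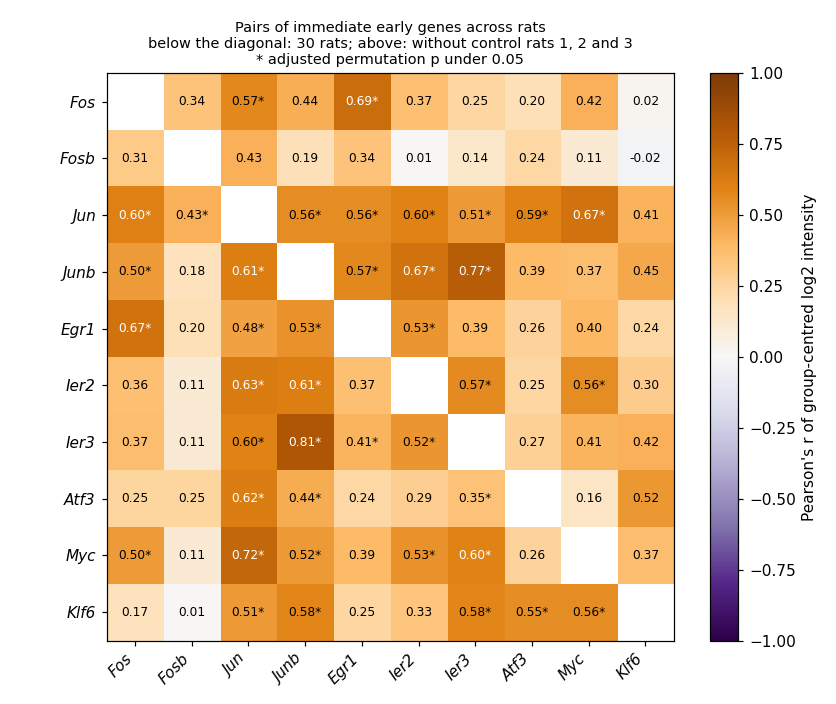
Pearson's r of group-centred log2 intensity for the 45 pairs of the 10 genes, over 30 rats below the diagonal and over 27 rats (without control rats 1, 2 and 3) above it; asterisks mark an adjusted permutation p under 0.05. The row and column of Jun hold the most marked pairs and those of Fosb the fewest, and the highest value is that of Junb and Ier3.

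The pattern was present within each group taken alone. The median r of the 45 pairs was 0.49 in the 10 rats handled for 1 day, with 43 pairs positive, 0.36 in the 10 rats handled for 4 days, with 38 positive, and 0.51 in the 10 control rats, with 40 positive. In the 7 control rats other than 1, 2 and 3 it was also 0.51, with 39 positive. The differences between the groups in this median were not tested. Leaving out each rat in turn moved the median over 0.38 to 0.49. It was lowest without rat 6 handled for 1 day. Leaving out the 2 rats with the highest and the 2 with the lowest member average gave 0.30, but rats left out for their average over the same genes lower r in any set that varies together.

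Junb and Ier3 were the closest pair, at r = 0.81 and rho = 0.82, with an adjusted permutation p of 0.00045 for each. The unadjusted p of 1e-05 is the smallest that the permutations can give. Without the 2 rats farthest from the median of Junb, r was 0.87, and without control rats 1, 2 and 3 it was 0.77. Within groups it was 0.78 after 1 day of handling, 0.71 after 4 days and 0.94 in control rats. No other probe set correlated with Junb as highly as Ier3 did. Fos and Egr1, each with serum response elements in its promoter in textbook accounts, correlated at r = 0.67 (rho = 0.68, adjusted permutation p = 0.00105 for r and 0.0009 for rho), and at 0.71, 0.68 and 0.66 in rats handled for 1 day, rats handled for 4 days and control rats. This pair was not lower without control rats 1, 2 and 3 (r = 0.69) or without the 2 rats farthest in Fos (r = 0.69).

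Jun was the member with the most pairs that passed by Pearson's r, 9 of 9 over all rats and 7 of 9 without control rats 1, 2 and 3. Its r was 0.72 with Myc (rho = 0.70, adjusted permutation p = 0.00105), 0.63 with Ier2, 0.62 with Atf3, 0.61 with Junb and 0.60 with Fos. For Jun and Atf3, r was 0.44 without the 2 rats farthest in Jun. In 2 of the 26 pairs that passed, r fell below 0.3 without the 2 rats farthest in the first gene named. These were Jun and Klf6 (from 0.51 to 0.29) and Atf3 and Klf6 (from 0.55 to 0.29). Junb passed in 8 of 9 pairs, Ier3 in 7, Myc in 6 and Klf6 in 5, while Fos, Egr1, Ier2 and Atf3 passed in 4 each. Over the 27 rats other than control rats 1, 2 and 3, Ier2 passed in 5 pairs, Junb and Egr1 in 4 each, Ier3 in 3, Fos and Myc in 2 each, Atf3 in 1, and Fosb and Klf6 in 0. Over all rats Fosb passed in 1 pair, with Jun (r = 0.43), and its probe set was brighter than only 15.99% of all probe sets. By Spearman's rho this pair with Jun did not pass (adjusted permutation p = 0.0999). Over the 8 members brighter than the median of all probe sets, which leave out Fosb and Atf3, the median r was 0.53.

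**Figure D4:**
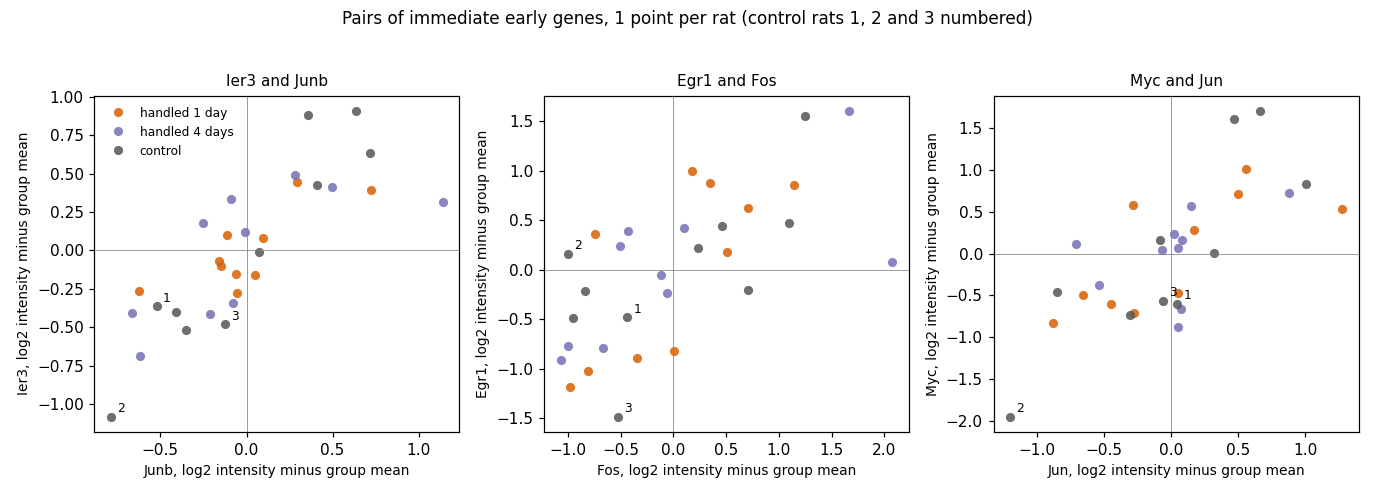
Log2 intensity minus group mean of Ier3 against Junb (left), Egr1 against Fos (centre) and Myc against Jun (right), with 1 point per rat coloured by group and control rats 1, 2 and 3 numbered. The points rise along the diagonal, with r = 0.81, 0.67 and 0.72 over 30 rats. For Myc and Jun, r was 0.40 in the 10 rats handled for 4 days, 0.74 after 1 day and 0.83 in control rats. Differences between these r were not tested.

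Single rats were high or low in nearly the whole set at once. The standardised average of the 10 genes, relative to each rat's own group, was highest in rat 6 handled for 1 day (1.54), control rat 9 (1.16), rat 5 handled for 4 days (1.07), control rat 10 (1.02) and rat 8 handled for 4 days (0.77). It was lowest in control rats 2 (-1.57) and 7 (-0.97), rat 7 handled for 1 day (-0.90) and rat 3 handled for 4 days (-0.82). Rat 6 handled for 1 day lay above its group median in 10 of 10 members, and control rat 7 in 0 of 10. In Jun, rat 6 handled for 1 day was at 3.06, the highest of 30, while in Egr1 rat 5 handled for 4 days was highest at 4.47. Each group held rats at both ends.

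**Figure D5:**
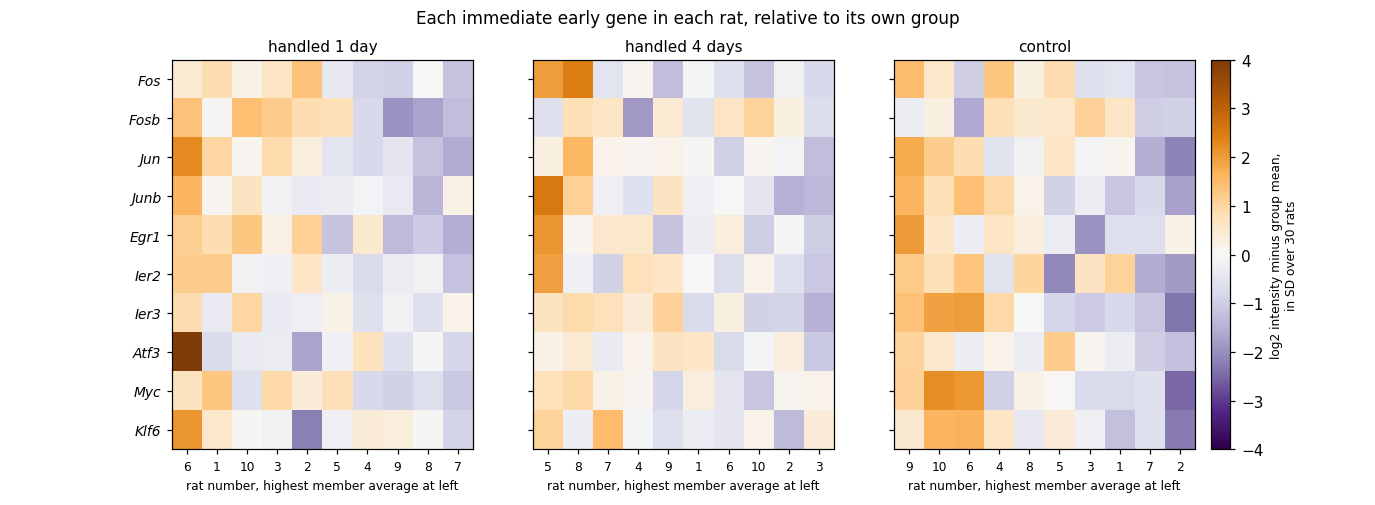
Log2 intensity of each of the 10 genes (rows) in each rat (columns), minus the mean of the rat's group and in units of the SD over 30 rats. Rats are ordered within each group by their member average, and rat 6 handled for 1 day, rat 5 handled for 4 days and control rat 9 are high in most rows while control rat 2 is low in 9 of 10.

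Measures of RNA integrity and of cell types were set against each member. In whole liver, more cells of a type and more RNA per cell cannot be told apart. The 110 relations were of the 10 genes with the Gapdh and beta-actin ratios and with the summed levels of 9 marker lists (hepatocyte, Kupffer cell, T and NK cell, B cell, neutrophil, sinusoidal endothelium, stellate cell, bile duct and erythroid). In 0 of 110 did r pass a within-group permutation test at an adjusted p under 0.05, over 30 rats or over 27. The median r of the 10 genes was 0.08 with the Gapdh ratio, 0.07 with the beta-actin ratio and 0.09 with the hepatocyte sum. It was highest with the summed level of 5 of 7 Kupffer cell markers, at 0.28 (0.18 over 27 rats), and reached 0.61 for Myc (unadjusted permutation p = 0.0015, adjusted p = 0.167), with a rho of 0.56 (adjusted permutation p = 0.361). That sum was 15.4 to 23.2 after 1 day of handling, 13.4 to 18.5 after 4 days and 14.9 to 24.0 in control rats. After the Gapdh ratio was regressed out of each gene, the median r of the 45 member pairs was 0.44.

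Of 46 other genes known to be induced early after a stimulus, 45 were measured. Limma called 0 of these 45, against 0.0902% of all probe sets after 1 day, 0.657% after 4 days and 0% between them. At an unadjusted p under 0.05 there were 4 after 1 day of handling and 8 after 4 days, against 9.33% and 11.3% of all probe sets. In a limma fit with 1 probe set per gene, 1713 and 1936 of 14217 genes were at that level. The median r of the 45 genes with the member average was 0.19, each gene taken by its highest-mean probe set. Over all non-member probe sets, dim ones included, the median was 0.02. The 95th percentile of those probe sets was 0.42, and 11 of the 45 genes lay above it. These were the growth arrest gene Gadd45g (r = 0.71), the kinase gene Sik1 (0.69), the mRNA decay factor Zfp36l1 (0.68), the antiproliferative gene Tob1 (0.65), the phosphatase genes Dusp5 (0.64), Dusp1 (0.57) and Dusp4 (0.51), the nuclear receptor genes Nr4a2 (0.53) and Nr4a1 (0.51), the anti-apoptotic gene Mcl1 (0.54) and the small Maf factor gene Maff (0.47). The kinase gene Sgk1 (-0.46) and the matrix protein gene Ccn2 (-0.41) had the lowest r. These r are given as a description, with n = 30 rats on the same arrays.

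The non-member genes whose pattern was most like the member average, by Pearson's r over 30 rats after centring on group means, were Simc1 (0.81), Tgif1 (0.76), Eef1a1 (0.73), Hnrnpdl (0.73), 4933427D14Rikl (0.72), Gadd45g (0.71), Ugp2 (0.71) and Sos2 (0.70). Without control rats 1, 2 and 3 their r with the average was 0.60 to 0.77. In limma 0 of these 8 genes were called after 1 or 4 days of handling, against 0.0902% and 0.657% of all probe sets. Gadd45g was the only one of the 8 on the list of other early genes.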

How the data were processed

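The deposited values are intensities, 1 per probe set and rat, which the authors made with Affymetrix and Rosetta Resolver software. They have a mean near 1 on every array, as read from the values, and the summary of probes and the scaling are not given in the sources used here. The number of arrays limits the precision. Gene symbols came from the platform annotation. The 10 genes, the other gene lists and the tests were chosen with earlier results of these data known.

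Log2 intensities, without an offset, of the 3 groups were fitted in 1 model with limma 3.58.1 (R 4.3.3, two-sided), with Benjamini-Hochberg adjustment over 31042 probe sets after 57 Affymetrix controls were left out. The spread test applied limma to absolute deviations from the group median. Pairs of genes were compared by Pearson's and Spearman's correlations of group-centred values. Genes named are all members, those called in each other list or the 2 with the smallest p, and the 8 genes most like the member average. Other early genes with an r above the 95th percentile, and the 2 with the lowest r, were added after their values were seen. The scripts were tested on simulated data. Figures were drawn with matplotlib 3.10.9 in Python 3.11.15. Groups come from the sample labels, and p-values measure the spread between these rats. Alternatives were other offsets, normalizations, filters, tests, samples and thresholds.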

Additional observations from a re-analysis of the deposited data

Results flagged for a closer look

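In 45 combinations of a member probe set and a group of 10 rats, 3 held a rat farther from the others than Dixon's 95% limit on the log2 scale, where chance gives about 1 in 20. Atf3 (1369268_at) in rat 6 handled for 1 day had an intensity of 1.01, and the nearest rat of its group had 0.148. Klf6 (1388986_at) in the same rat had 0.895, against 0.694 in the nearest rat. Egr1 (1368321_at) in rat 5 handled for 4 days had 4.47, against 1.97. All 3 were the highest of their group, and both rats were among the 3 with the highest member average. Their part in the group differences was not tested beyond leaving out each rat in turn, which called 0 member probe sets.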

How the results depend on the processing

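For the number of member probe sets called, 15 alternatives per comparison were chosen with earlier results of these data known. Each gave 0 of 15 (0 of 12 without the dimmest 40% of probe sets, 0 of 10 with 1 probe set per gene). In these alternatives 0% to 2.63% of all probe sets tested were called, so 0 calls among so few members says little. Each of 30 fits without 1 rat also gave 0 calls, with a smallest adjusted p of 0.220 in limma. In those fits 0 to 1 members after 1 day of handling and 0 to 5 after 4 days had an unadjusted p under 0.05. The replicate block gave 0 calls, with 1 and 3 probe sets at an unadjusted p under 0.05, and a median pair r of 0.45. Same-numbered rats' deviations correlated at -0.04 to 0.12 over 30 pairs, with 1 above 0.1. In 13 of 30 the rat of the same number was the closest of 10, more than the 1 in 10 of numbers without meaning. This is a hint from the data and not the design, so the numbers were not taken to pair the rats. The study ran its one-way ANOVA and t-tests on log ratios to the control mean, with an in-house non-parametric test beside them. Here the ANOVA and t-tests were run on log2 intensities, and at a p under 0.001 they gave 0 members. Of all 31042 probe sets, 260 were at that level in the ANOVA. In the t-tests it was 163 after 1 day, 233 after 4 days and 44 between them. The cause was not tested where values moved. Deviations from the group mean gave 1 member called in spread after 1 day of handling in place of 0. The median r was 0.30 without the 2 highest and 2 lowest rats and 0.53 in the members above the median brightness, both chosen after the data were seen, the first of which lowers r in any set that varies together, and 0.38 to 0.49 with 1 rat left out. The number of correlated pairs was 14 in place of 26 without control rats 1, 2 and 3. That setting had 27 rats in place of 30 and a median r of 0.40 in place of 0.44. Of 304 alternative log2 differences of single members, 8 changed sign and 0 were called. Many of the 304 changed only the test, the filter or the estimate of variance, and could not move the difference itself. The 8 therefore do not measure how stable the signs are. Without control rats 1, 2 and 3, Egr1 gave -0.11 and Junb -0.063 after 1 day, and Fos -0.086 and Junb -0.0115 after 4 days. Atf3 after 1 day gave 0.046 and 0.0055 with offsets of 0.05 and 16 and 0.026 with the Gapdh ratio as a covariate, which gave -0.079 for Fos after 4 days. With 1 rat left out, values after 1 day ran over -0.25 to 0.15 for Myc, -0.0186 to 0.32 for Egr1, -0.39 to 0.13 for Atf3 and -0.16 to 0.10 for Fos, and after 4 days over -0.0365 to 0.33 for Fos.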

Other observations

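Partner and regulator genes of the set were described by the same fit. It called 0.0902% of all probe sets after 1 day of handling, 0.657% after 4 days and 0% between them. With so few calls over all probe sets, 0 or 1 call in a short list says little. Of 14 measured AP-1 partners, limma called 0 in each comparison, and the smallest p-values were those of Batf, a partner of Jun in immune cells (log2 differences 0.71 after 1 day of handling and 0.56 after 4 days, adjusted p = 0.411 and 0.447 in limma), and Fosl1 (0.44 and 0.24, adjusted p = 0.463 and 0.663). Of 18 measured partners and targets of Myc, 0 were called, with the smallest p for Cad, an enzyme of pyrimidine synthesis (-0.29 and -0.19, adjusted p = 0.263 and 0.386 in limma), and Mxd4, an antagonist of Myc (-0.32 and -0.35, adjusted p = 0.328 and 0.177). At an unadjusted p under 0.05, limma gave 7 of these 18 after 1 day and 4 after 4 days, against 9.33% and 11.3% of all probe sets. With 1 probe set per gene, 1713 and 1936 of 14217 genes were at that level in limma.

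Among the other early genes, Klf10, a Krüppel-like factor, came nearest to the threshold. Its intensity was 1.69 to 3.56 after 1 day of handling (median 2.92), 1.56 to 4.30 after 4 days (median 3.08) and 1.42 to 2.52 in control rats (median 2.05). The differences were 0.42 and 0.58 on the log2 scale, with adjusted p-values of 0.405 and 0.112 in limma. Its r with the member average was -0.10 over 30 rats.

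Of 19 measured kinases and factors upstream of the set, limma called 0, with the smallest p for Elk4, a partner of serum response factor (0.19 and 0.13, adjusted p = 0.398 and 0.469), and Mapk9, a kinase of Jun (-0.08 and -0.29, adjusted p = 0.880 and 0.302). The glucocorticoid-induced list gave 0 of 9, with Sgk1 (-0.11 and -0.31, adjusted p = 0.772 and 0.185) and Tat, a tyrosine-degrading enzyme (-0.34 and -0.53, adjusted p = 0.586 and 0.237), nearest. The acute phase list gave 0 of 13, with Stat3 (0.17 and 0.40, adjusted p = 0.709 and 0.189) and Lbp (0.57 and 0.52, adjusted p = 0.324 and 0.260) nearest. Among the markers of other cell types, limma called 1 gene, against 0.657% of all probe sets after 4 days of handling. This was Nkg7, a granule protein of T and NK cells. Its log2 difference after 4 days of handling, as labelled, was -0.42 (adjusted p = 0.0902 in limma), at 0.108 to 0.188 after 4 days and 0.144 to 0.237 in control rats, and its r with the member average was -0.13. The other 5 measured markers of T and NK cells lay between -0.34 (Gzmb) and 0.27 (Cd3e) and did not pass.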
